A study of Mus musculus with 6 samples.

Results

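The 10 genes described here encode enzymes that attach coenzyme A to long-chain and very long-chain fatty acids: the long-chain acyl-CoA synthetases Acsl1, Acsl3, Acsl4, Acsl5 and Acsl6, and the Slc27a family members Slc27a1, Slc27a2, Slc27a3, Slc27a4 and Slc27a5, also called fatty acid transport proteins. They were taken by gene symbol from a table of 16858 genes, and all 10 were found in it. Liver RNA was sequenced from Aqp5-/- mice, in which aquaporin 5 was disrupted by CRISPR/Cas9, and from Aqp5+/+ mice, the wild type, all on a C57BL/6 background and at 72 h after surgical removal of 70% of the liver (partial hepatectomy, PHx). Each genotype had 3 libraries of rRNA-depleted total RNA, with 7130831 to 15550006 counts per library. The methods state 3-month-old males for PHx, and no source says that each library came from a different mouse, so the p-values below refer only to library-to-library spread, part of which could be technical.

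A long-chain fatty acid that enters a hepatocyte is converted to an acyl-CoA by a synthetase before most of its further use. The acyl-CoA can then be carried into mitochondria or peroxisomes for oxidation, built into triglyceride, phospholipid or cholesteryl ester, or elongated and desaturated. The family members differ in where they sit in the cell and which fatty acids they accept. In liver, Acsl1 and Acsl5 are the main long-chain synthetases, Slc27a2 activates very long-chain fatty acids and Slc27a5 activates bile acids for conjugation. Acsl1 is a known target of the nuclear receptor PPARα, which the study examined.

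The libraries differed between genotypes in more than the labelled genotype. The 4 Y-linked genes measured summed to 0.869 to 1.19 CPM, which are counts scaled to a common library total, in Aqp5-/- libraries, against 287 to 471 CPM in Aqp5+/+ libraries. All 19 tested genes of a list of male-biased liver genes had lower values in every Aqp5-/- library than in any Aqp5+/+ library. All 21 tested genes of a female-biased list had higher ones. Of all tested genes, 7.8% were lower without overlap, and 14.7% did not overlap in either direction. Both lists were chosen with earlier results of these data known, so these counts are a description and no independent test. For the Aqp5-/- libraries, this difference in Y-linked and sex-biased genes is at odds with the males stated in the methods. The genotype therefore cannot be told apart from this difference in any result below, and the level of Aqp5 itself was not analysed here. Hepatocyte markers summed to 115710 to 123744 CPM in Aqp5-/- and to 80682 to 129949 CPM in Aqp5+/+ libraries, so the liver label fitted all 6. Macrophage markers summed to 736 to 1667 CPM in Aqp5-/- and to 347 to 602 CPM in Aqp5+/+ libraries, and none of the 11 in the table was at 0 in all libraries. All 10 tested ones had positive log2 fold changes, where 49% of all tested genes had negative ones. EdgeR called none of them, where it called 0.332% of all tested genes. At an unadjusted p under 0.05, 9 of the 10 passed with edgeR, where 8.78% of all tested genes passed in either direction. For 9 of the 10, every Aqp5-/- library lay above all Aqp5+/+ libraries, where 14.7% of all tested genes did not overlap in either direction. DESeq2 called 3, Vsig4, Marco and Lyz2, where it called 1.94% of all tested genes. Neutrophil markers summed to 30.0 to 102 CPM in Aqp5-/- and to 4.51 to 24.2 CPM in Aqp5+/+ libraries, with 7 of 7 tested ones positive. EdgeR called 1, Ngp, and DESeq2 called 2, Ngp and Ltf, beside the same shares of all tested genes. Ngp was low throughout, at 2.26 to 3.16 CPM in Aqp5-/- and at most 0.0814 CPM in Aqp5+/+ libraries. Lymphocyte markers summed to 2.92 to 12.2 CPM in Aqp5-/- and to at least 11.3 CPM in Aqp5+/+ libraries, with 7 of 8 tested ones negative and none called by edgeR or DESeq2. The part of these cell types in the results below was not tested. Aqp5-/- replicate 3 stood apart, with stellate cell markers summing to 3149 CPM, against at most 847 CPM in the other libraries, and cholangiocyte markers summing to 430 CPM, against at most 192 CPM. Most of these sums came from the collagens Col1a1, Col1a2 and Col3a1, at 573, 546 and 1407 CPM, and from Spp1, at 337 CPM. Of the stellate list, Lrat, Reln and Rgs5, at 30.1, 111 and 88.7 CPM, lay within the range of the other libraries. The rest of that list was highest in Aqp5-/- replicate 3. Aqp5+/+ replicate 2 had the fewest counts. These 2 libraries had the lowest mean correlation with their own group, 0.914 and 0.916 over genes on the log2 CPM scale, against 0.931 to 0.944 for the other 4.

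The windows around the annotated start sites are shown for Acsl1 and Slc27a2, the 2 of 9 tested members at a lower level in every Aqp5-/- library than in any Aqp5+/+ library, as were 7.8% of all tested genes. RefSeq gave windows of 250 bases before to 50 bases after a start on GRCm38.p6 for 9 of the 10 members. Acsl1 has 2 such windows on the plus strand of chromosome 8, chr8:46470787-46471086 and chr8:46490716-46491015, whose starts lie 19929 bases apart. The Slc27a2 window is chr2:126552774-126553073 on the plus strand. Capitals mark matches to the nuclear receptor half-site AGGTCA or to the sterol regulatory element TCACNCCAC on either strand.
Acsl1 first start: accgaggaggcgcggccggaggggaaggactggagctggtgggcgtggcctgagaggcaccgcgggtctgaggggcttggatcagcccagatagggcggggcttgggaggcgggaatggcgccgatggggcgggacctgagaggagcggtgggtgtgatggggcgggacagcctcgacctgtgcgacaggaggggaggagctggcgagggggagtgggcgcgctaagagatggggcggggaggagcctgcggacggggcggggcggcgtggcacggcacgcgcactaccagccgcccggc
Acsl1 second start: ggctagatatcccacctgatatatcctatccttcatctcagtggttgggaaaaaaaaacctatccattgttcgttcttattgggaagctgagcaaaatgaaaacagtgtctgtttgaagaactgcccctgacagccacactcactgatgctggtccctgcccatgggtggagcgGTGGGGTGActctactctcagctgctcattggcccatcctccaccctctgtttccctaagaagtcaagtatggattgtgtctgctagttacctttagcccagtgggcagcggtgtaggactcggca
Slc27a2 start: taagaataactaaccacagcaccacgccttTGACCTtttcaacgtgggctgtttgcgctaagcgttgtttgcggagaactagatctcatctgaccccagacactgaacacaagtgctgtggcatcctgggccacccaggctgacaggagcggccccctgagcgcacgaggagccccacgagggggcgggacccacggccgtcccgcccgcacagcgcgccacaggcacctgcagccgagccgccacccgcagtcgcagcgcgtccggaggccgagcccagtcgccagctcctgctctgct

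The half-site occurred 1 time in the Slc27a2 window, beginning 220 bases before the start, and in neither Acsl1 window. Of 32851 RefSeq mouse windows of this length, 16.3% held it. A direct repeat of the half-site with 1 spacer base, an exact form of the element that dimers of PPAR and RXR bind, was in none of the 14 windows of the members and in 0.0396% of all windows. The sterol regulatory element occurred 1 time in the second Acsl1 window, beginning 76 bases before the start, and in 1.24% of all windows, and it did not overlap a half-site. The TATA box letters TATAAA were in none of the 14 windows of the members and in 13.6% of all windows. The first Acsl1 window had a GC content of 74% and the second one of 50%, against 65.3% for Slc27a2. The counts were made per gene, so they do not show which start was used.

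Of the 10 members, 9 had enough counts to be tested and none was called at an adjusted p under 0.05 by the quasi-likelihood test of edgeR, with p-values adjusted after Benjamini and Hochberg over 12353 genes, where 0.332% of genes were called. At an unadjusted p under 0.05, 2 members passed, Acsl1 and Slc27a2, both at a lower level in Aqp5-/- livers, where 4.48% of all tested genes passed in that direction. DESeq2 called 1 member, Acsl1, where it called 1.94% of all tested genes, and limma called no member. In whole liver, fewer cells of a type and less RNA per cell cannot be told apart. The log2 fold changes of the 9 members lay between -1.31 for Acsl1 and 0.18 for Slc27a4, beside a median of 0.01 over all tested genes. The values of Acsl3, Acsl4, Slc27a1 and Slc27a4 lay within 0.2 of 0 on the log2 scale, and each of these 4 changed sign under at least 1 alternative.

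**Figure D1:**
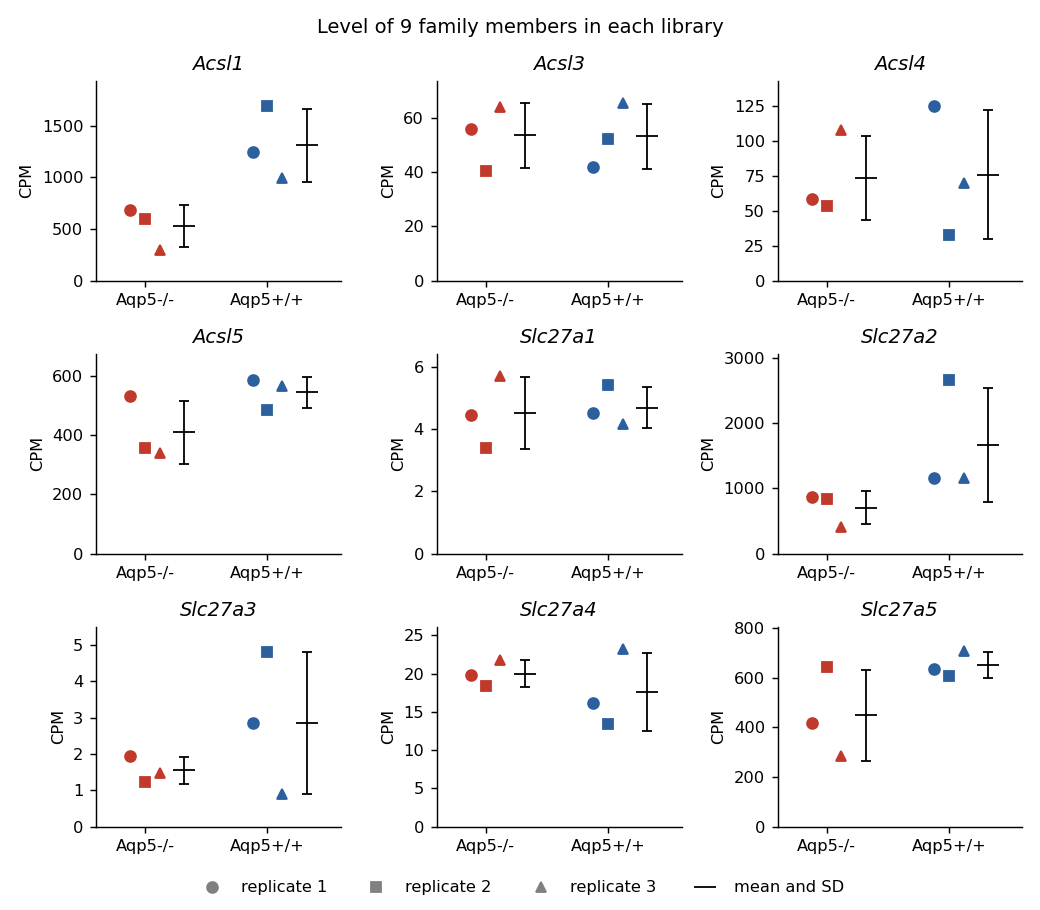
Level of the 9 tested members in CPM (linear axes from 0) in each library, Aqp5-/- left and Aqp5+/+ right, with the mean and SD of 3 libraries beside the points. The Aqp5-/- libraries lie below all Aqp5+/+ libraries for Acsl1 (at most 681 CPM, against at least 998 CPM) and Slc27a2 (at most 866 CPM, against at least 1158 CPM), and overlap them for the other 7 genes.

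Acsl1, the major long-chain acyl-CoA synthetase of hepatocytes, lies on chromosome 8 from 46471037 to 46536051 (GRCm38). It was measured at 681, 601 and 299 CPM in Aqp5-/- replicates 1 to 3 and at 1244, 1690 and 998 CPM in Aqp5+/+ replicates 1 to 3. All Aqp5-/- libraries lay below all Aqp5+/+ libraries and Aqp5-/- replicate 3 was the lowest of the 6. The mean was 527 ± 202 CPM in the Aqp5-/- group, against 1310 ± 351 CPM in the Aqp5+/+ group (± SD of 3 libraries), so that the Aqp5-/- mean was 40.2% of the Aqp5+/+ mean. The log2 fold change was -1.31 (standard error 0.39, 95% interval -2.20 to -0.43), with an unadjusted p of 0.00873 (edgeR; adjusted p = 0.37), and it ranked 291 among the 12353 genes by p. DESeq2 gave an adjusted p = 0.026, and over all 14 alternatives the adjusted p lay between 0.026 and 0.73. The annotation has an overlapping transcript on the opposite strand, Gm45244, that is not in the table used here. Without both Aqp5-/- replicate 3 and Aqp5+/+ replicate 2, the log2 fold change was -0.81 with an unadjusted p of 0.0171 (edgeR; adjusted p = 0.41).

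Acsl5, a synthetase of the outer mitochondrial membrane and endoplasmic reticulum, lies on chromosome 19 from 55251938 to 55297720. Its level was 534, 358 and 341 CPM in Aqp5-/- libraries, against 586, 487 and 567 CPM in Aqp5+/+ libraries. The groups overlapped, because Aqp5-/- replicate 1 exceeded Aqp5+/+ replicate 2. The log2 fold change of -0.41 (95% interval -1.05 to 0.23) had an adjusted p = 0.69 from edgeR. It was -0.65 without Aqp5-/- replicate 1 and -0.25 with library totals. Exons of Acsl5 overlap those of Zdhhc6 on the opposite strand, which was at 3.75 to 7.54 CPM in all libraries, and the strand setting of the counting is not given in the sources used here.

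Acsl4, which prefers arachidonic acid, lies on chromosome X from 142317993 to 142390535, and Acsl3, a synthetase of the endoplasmic reticulum and of lipid droplets, on chromosome 1 from 78657825 to 78707743. Acsl4 was measured at 58.6, 53.2 and 108 CPM in Aqp5-/- and at 125, 32.9 and 69.5 CPM in Aqp5+/+ libraries. The Aqp5+/+ libraries spread 3.80-fold from lowest to highest and enclosed all Aqp5-/- values. Its log2 fold change was -0.05 (95% interval -1.12 to 1.02) with TMM scaling and 0.09 with library totals, and it was 0.51 without Aqp5+/+ replicate 1 and -0.80 without both Aqp5+/+ replicate 2 and Aqp5-/- replicate 3. Acsl3 was at 56.0, 40.3 and 64.2 CPM in Aqp5-/- and at 41.7, 52.3 and 65.5 CPM in Aqp5+/+ libraries, with a log2 fold change of 0.01 (95% interval -0.58 to 0.60), or -0.14 without Aqp5-/- replicate 3. Exons of Acsl3 overlap those of Utp14b on the same strand, which was at 60.9 to 94.1 CPM. The counts of both genes could therefore depend on how reads from the shared exons were treated.

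Acsl6, best known from brain and erythroid cells, lies on chromosome 11 from 54303798 to 54364756 and was not tested. Its counts were 0, 0 and 1 in Aqp5-/- replicates, against 4, 0 and 2 in Aqp5+/+ replicates. Only Aqp5+/+ replicate 1 exceeded the 3 counts that a count of 0 allows, so no fold is given.

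Slc27a2, the very long-chain acyl-CoA synthetase of peroxisomes and endoplasmic reticulum, lies on chromosome 2 from 126552407 to 126588243. It was measured at 866, 838 and 412 CPM in Aqp5-/- libraries, against 1160, 2671 and 1158 CPM in Aqp5+/+ libraries. The groups did not overlap, Aqp5-/- replicate 3 was the lowest library and Aqp5+/+ replicate 2 was the highest by far. The mean was 705 ± 255 CPM in the Aqp5-/- group, against 1663 ± 873 CPM in the Aqp5+/+ group (± SD of 3 libraries), and the log2 fold change was -1.24 (standard error 0.46, 95% interval -2.28 to -0.20). Before adjustment p was 0.0248 in edgeR and the adjusted p = 0.49, which lay between 0.13 and 0.88 over the 14 alternatives. Single libraries set much of this value: without Aqp5+/+ replicate 2 the log2 fold change was -0.72 with an unadjusted p of 0.0935 from edgeR, without Aqp5-/- replicate 3 it was -0.97 with a p of 0.0582, and without both it was -0.44 with a p of 0.143. Exons of Slc27a2 overlap those of Gm26697 on the opposite strand, which is not in the table used here.

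Slc27a5, the bile acyl-CoA synthetase, lies on chromosome 7 from 12988346 to 12998192. It was measured at 416, 645 and 283 CPM in Aqp5-/- libraries, against 636, 608 and 709 CPM in Aqp5+/+ libraries. Aqp5-/- replicate 2 lay within the Aqp5+/+ values and the other 2 lay below them. Its log2 fold change was -0.54 (95% interval -1.31 to 0.23) with an adjusted p = 0.65 from edgeR, and was -0.30 without Aqp5-/- replicate 3 and -0.90 without Aqp5-/- replicate 2. Baat, which joins the activated bile acid to taurine or glycine in the next step, was at 255, 222 and 200 CPM in Aqp5-/- and at 218, 347 and 238 CPM in Aqp5+/+ libraries, with overlapping groups.

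The remaining 3 members of the Slc27a family were low in liver. Slc27a4 on chromosome 2 from 29802634 to 29817522, the main fatty acid transport protein of intestine and skin, was at 19.9, 18.3 and 21.8 CPM in Aqp5-/- and at 16.2, 13.4 and 23.2 CPM in Aqp5+/+ libraries, and was the only tested member of this family with a positive log2 fold change, 0.18 (95% interval -0.43 to 0.80), which was -0.04 without both Aqp5+/+ replicate 2 and Aqp5-/- replicate 3. Slc27a1 on chromosome 8 from 71568882 to 71587302, known from muscle and fat, was at 4.46, 3.39 and 5.71 CPM in Aqp5-/- and at 4.53, 5.41 and 4.15 CPM in Aqp5+/+ libraries, with a log2 fold change of -0.05 under TMM scaling and 0.12 with library totals. Slc27a3 on chromosome 3 from 90385239 to 90389938 was at 1.95, 1.22 and 1.49 CPM in Aqp5-/- and at 2.85, 4.81 and 0.895 CPM in Aqp5+/+ libraries. The groups overlapped for all 3 genes. The log2 fold change of Slc27a3, -0.85, had the widest interval of the 9 members, from -2.37 to 0.67, and was -0.27 without Aqp5+/+ replicate 2 and -1.29 without Aqp5+/+ replicate 3.

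**Figure D2:**
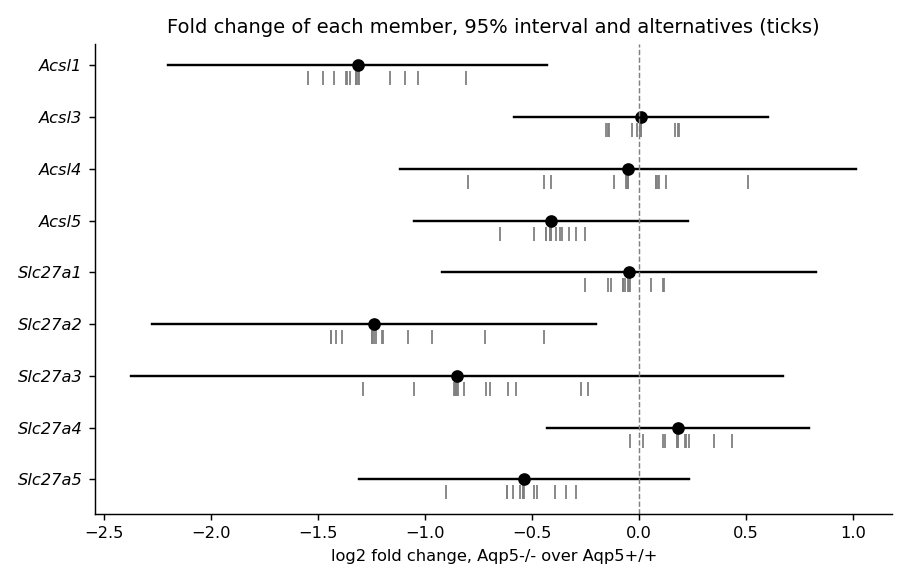
Log2 fold change of Aqp5-/- over Aqp5+/+ for the 9 tested members (points) with the 95% interval from edgeR (lines) and the values under 14 alternatives (ticks below each line). Acsl1 at -1.31 and Slc27a2 at -1.24 are the members whose interval does not reach 0, and the ticks of Acsl3, Acsl4, Slc27a1 and Slc27a4 fall on both sides of 0.

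To compare levels between genes, CPM were divided by the length of the merged exons of each gene in kilobases. On this scale Slc27a2 had the highest mean in both genotypes, at 188 ± 67.8 CPM per kb in Aqp5-/- and 443 ± 233 CPM per kb in Aqp5+/+ livers (SD, n = 3 each). Slc27a5 was next, at 184 ± 75.0 CPM per kb in Aqp5-/- and 267 ± 21.4 CPM per kb in Aqp5+/+ livers, and it exceeded Slc27a2 in 2 of 3 Aqp5-/- libraries and in none of the Aqp5+/+ libraries, while over the longest annotated transcripts it exceeded Slc27a2 in none of the 6. Acsl5 followed in Aqp5-/- livers at 84.5 ± 21.9 CPM per kb, ahead of Acsl1 at 50.3 ± 19.3 CPM per kb, with no overlap between these genes. In Aqp5+/+ livers Acsl1 was at 125 ± 33.5 CPM per kb and Acsl5 at 112 ± 10.9 CPM per kb, and their libraries overlapped. The order of Acsl1 and Acsl5 depends on the length used: over the longest annotated transcript, Acsl1 was at 92.8 ± 35.6 CPM per kb and Acsl5 at 96.9 ± 25.1 CPM per kb in Aqp5-/- livers, with overlap, against 231 ± 61.8 and 129 ± 12.5 CPM per kb in Aqp5+/+ livers, without overlap. Acsl4 and Acsl3 were lower, at 13.5 ± 5.57 and 12.3 ± 2.78 CPM per kb in Aqp5-/- and 14.0 ± 8.57 and 12.2 ± 2.73 CPM per kb in Aqp5+/+ livers, and did not separate from each other. Slc27a4 was at 4.53 CPM per kb in Aqp5-/- and 3.98 CPM per kb in Aqp5+/+ livers, and Slc27a1, Slc27a3 and Acsl6 averaged at most 1.11 CPM per kb.

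The summed level of the Acsl members was 198, 150 and 133 CPM per kb in Aqp5-/- libraries, against 272, 279 and 240 CPM per kb in Aqp5+/+ libraries. The 3 Aqp5-/- libraries were the lowest of the 6, and the difference in means was -103 CPM per kb, or -170 CPM per kb over the longest annotated transcripts. An exact permutation test, 2-sided, gave p = 0.1, the smallest value that 3 against 3 libraries allow. The summed level of the Slc27a members was 408, 493 and 232 CPM per kb in Aqp5-/- and 575, 967 and 606 CPM per kb in Aqp5+/+ libraries, again without overlap and with an exact p of 0.1. Its difference in means was -338 CPM per kb, and -213 CPM per kb without Aqp5+/+ replicate 2. Slc27a2 and Slc27a5 made up 98.2 ± 0.907% of the Slc27a sum in Aqp5-/- and 99.1 ± 0.235% in Aqp5+/+ livers (SD, n = 3 each), and the difference of -0.907 percentage points was -0.398 without Aqp5-/- replicate 3.

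**Figure D3:**
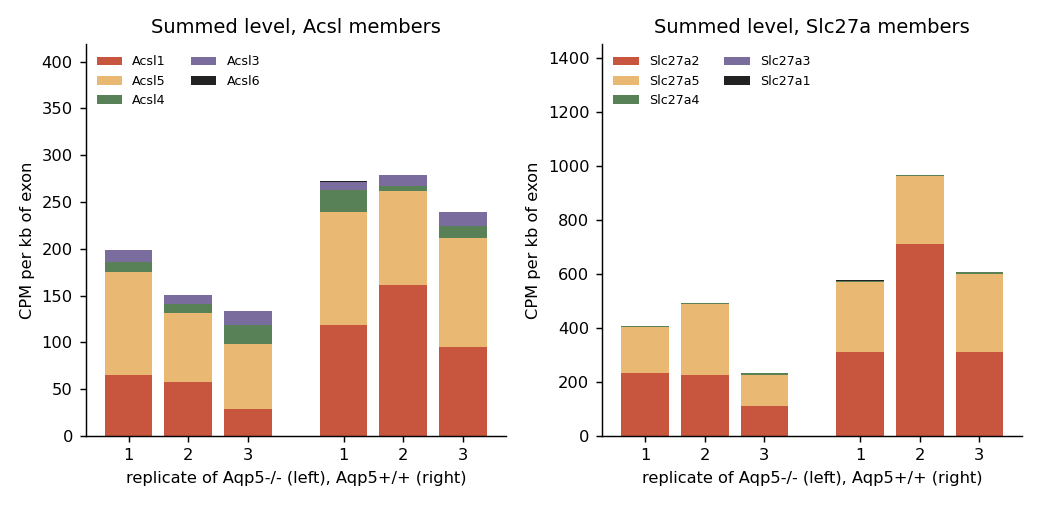
Summed level in CPM per kb of exon of the Acsl members (left panel) and the Slc27a members (right panel) in each library, stacked by gene, with Aqp5-/- replicates left and Aqp5+/+ replicates right. The Acsl bars reach 133 to 198 in Aqp5-/- and 240 to 279 in Aqp5+/+ libraries, and the Acsl1 segment averages 50.3 in Aqp5-/- and 125 in Aqp5+/+ libraries.

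Acsl1 supplied 32.8, 38.2 and 21.4% of the Acsl sum in Aqp5-/- libraries, against 43.6, 57.7 and 39.7% in Aqp5+/+ libraries, with no overlap and an exact p of 0.1 from the permutation test. The ratio of Acsl1 to Acsl5 counts within a library, which depends on no scaling and was chosen after the values were seen, was 1.28, 1.68 and 0.876 in Aqp5-/- and 2.12, 3.47 and 1.76 in Aqp5+/+ libraries. These groups did not overlap, although the nearest values, 1.68 in Aqp5-/- and 1.76 in Aqp5+/+ libraries, were close. The ratio of Slc27a2 to Slc27a5 counts, by contrast, overlapped, at 2.08, 1.30 and 1.45 in Aqp5-/- and 1.82, 4.40 and 1.63 in Aqp5+/+ libraries, with an exact permutation p of 0.4. The ratio of Acsl1 to Slc27a2 counts also overlapped, at 0.787, 0.717 and 0.725 in Aqp5-/- and 1.07, 0.633 and 0.862 in Aqp5+/+ libraries.

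The pattern across libraries joined Acsl1 and Slc27a2. After each gene was centred on its own mean, these genes differed by a root mean square of 0.24 on the log2 scale over the 6 libraries, while Acsl1 differed from Acsl5 by 0.61, from Slc27a5 by 0.53 and from Acsl4 by 1.22. Among the 8104 other genes averaging 10 CPM or more, the nearest named gene to Acsl1 was Cyp2f2, a cytochrome P450, at 0.15, followed by Exph5 at 0.18, Hsd3b7, an enzyme of bile acid synthesis, at 0.19, Scnn1a at 0.20 and Ghr, the growth hormone receptor, at 0.20. Cyp2f2 was also nearest to Slc27a2, at 0.13, followed by Rtp3 at 0.19, Hsd3b7 at 0.21, Cyp27a1, a bile acid synthesis enzyme, at 0.22 and Zfand4 at 0.23. The median difference of all these genes from Acsl1 was 0.84. Cyp2f2, which is on the list of male-biased genes, was at 662, 645 and 312 CPM in Aqp5-/- and at 969, 1686 and 939 CPM in Aqp5+/+ libraries. These distances over 6 libraries are a description, and they share the low Aqp5-/- replicate 3 and the high Aqp5+/+ replicate 2.

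**Figure D4:**
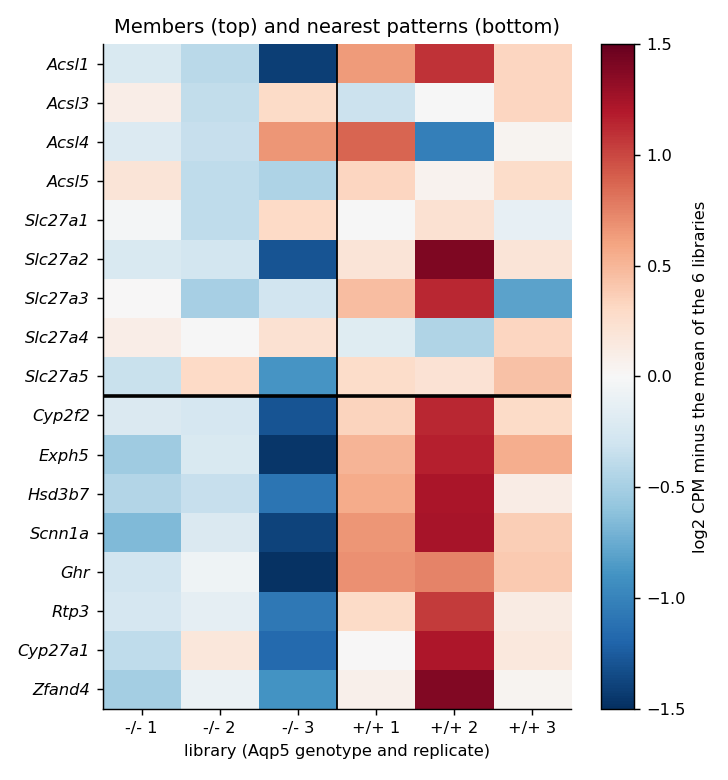
Log2 CPM minus the mean of the 6 libraries for the 9 tested members (above the line) and for the genes nearest to Acsl1 or Slc27a2 (below it), with Aqp5-/- libraries left and Aqp5+/+ libraries right. Acsl1 and Slc27a2 share with the genes below the line a low Aqp5-/- replicate 3 (-1.42 and -1.30) and a high Aqp5+/+ replicate 2 (1.08 and 1.40), which Acsl3, Acsl4 and Slc27a4 do not show.

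The other acyl-CoA synthetases, for acetate, medium-chain and other acids, gave a mixed picture. Of 15 listed, 10 were tested. EdgeR and limma called none of them and DESeq2 called 1, Acss3, where it called 1.94% of all tested genes. At an unadjusted p under 0.05, 3 of the 10 passed with edgeR, where 8.78% of all tested genes passed in either direction. The list's median log2 fold change was -0.33, beside 0.01 over all tested genes. Acsm5, a medium-chain synthetase of mitochondria, was at 173, 220 and 82.7 CPM in Aqp5-/- and at 407, 342 and 277 CPM in Aqp5+/+ libraries, without overlap. Acsf2 was at 249, 180 and 129 CPM in Aqp5-/- and at 309, 306 and 267 CPM in Aqp5+/+ libraries, also without overlap. Acss3, a mitochondrial short-chain synthetase, lay in the other direction, at 45.4, 43.0 and 22.4 CPM in Aqp5-/- and at 11.7, 17.7 and 17.2 CPM in Aqp5+/+ libraries. Acsm1 and Acss2, the cytosolic acetyl-CoA synthetase, overlapped between genotypes.

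Of the proteins that bind acyl-CoA, 7 were tested and 6 of the 7 log2 fold changes were negative, as were 49% of those of all tested genes. EdgeR called none, while 1 of the 7, Scp2, had an unadjusted p under 0.05 (8.78% of all tested genes) and was called by DESeq2 (1.94% of all tested genes). Scp2, which carries lipids and thiolyses branched acyl-CoA in peroxisomes, was at 1262, 1056 and 1030 CPM in Aqp5-/- and at 2689, 2122 and 2894 CPM in Aqp5+/+ libraries, so its log2 fold change was -1.20 (edgeR adjusted p = 0.26). Dbi, the acyl-CoA binding protein, and Fabp1, the liver fatty acid binding protein, overlapped, with log2 fold changes of -0.60 and -0.58.

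The lists of genes for the routes that take up acyl-CoA were not tested against each other. In the mitochondrial list, from Cpt1a to the electron transfer flavoproteins, 0 of 18 tested genes were called by edgeR or DESeq2, 0 passed an unadjusted p of 0.05 with edgeR, where 8.78% of all tested genes did, and the median log2 fold change was -0.07. Cpt1a, which commits acyl-CoA to mitochondria, was at 684, 467 and 552 CPM in Aqp5-/- and at 465, 539 and 597 CPM in Aqp5+/+ libraries, and Cpt2, the inner carnitine palmitoyltransferase, averaged 63.7 CPM in Aqp5-/- and 69.5 CPM in Aqp5+/+ libraries. The peroxisomal list shares Scp2 with the binding proteins. EdgeR called no gene of it lower and 1 higher, Abcd2 (0.332% of all tested genes, either direction). DESeq2 called 2, Scp2 at a lower and Abcd2 at a higher level in Aqp5-/- libraries (1.94% of all tested genes). At an unadjusted p under 0.05 edgeR had 4 of 16 genes lower and 1 higher (8.78% of all tested genes, either direction). For 6 of the 16, every Aqp5-/- library lay below all Aqp5+/+ libraries, beside the 7.8% of all tested genes given above. The median log2 fold change was -0.39, and 15 of 16 were negative, beside 49% over all tested genes. The exception, Abcd2, a peroxisomal importer of very long-chain acyl-CoA, was the only gene of the lists on acyl-CoA that edgeR called, and it rose to 84.9, 78.5 and 57.3 CPM in Aqp5-/- libraries, against 19.4, 11.3 and 16.0 CPM in Aqp5+/+ libraries (log2 fold change 2.23, adjusted p = 0.025 from edgeR). Abcd2 is also on the list of female-biased liver genes.

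In the glycerolipid and cholesteryl ester list edgeR and DESeq2 called none of 19 tested genes, 2 had an unadjusted p under 0.05 (8.78% of all tested genes), and the middle log2 fold change was 0.01. Gpam and Dgat2, which open and close triglyceride synthesis, had log2 fold changes of -0.45 and 0.28, with overlapping groups. Of 13 tested elongases, desaturases and partner enzymes edgeR called none, 2 had an unadjusted p under 0.05 (8.78% of all tested genes) and DESeq2 called 1, Elovl3 (1.94% of all tested genes), which is also on the male-biased list. Their median log2 fold change was -0.20. The transcription factors listed as controlling these genes included 16 tested genes, of which edgeR and DESeq2 called none. None had an unadjusted p under 0.05 with edgeR (8.78% of all tested genes). Their median log2 fold change was -0.25, and 12 of 16 were negative, beside 49% over all tested genes. Ppara was at 347, 316 and 123 CPM in Aqp5-/- and at 300, 417 and 404 CPM in Aqp5+/+ libraries, Pparg at 5.74 to 11.7 CPM in Aqp5-/- and 8.71 to 13.3 CPM in Aqp5+/+ libraries, and Hnf4a at 597 to 776 CPM in Aqp5-/- and 501 to 703 CPM in Aqp5+/+ libraries, so all 3 overlapped.

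**Figure D5:**
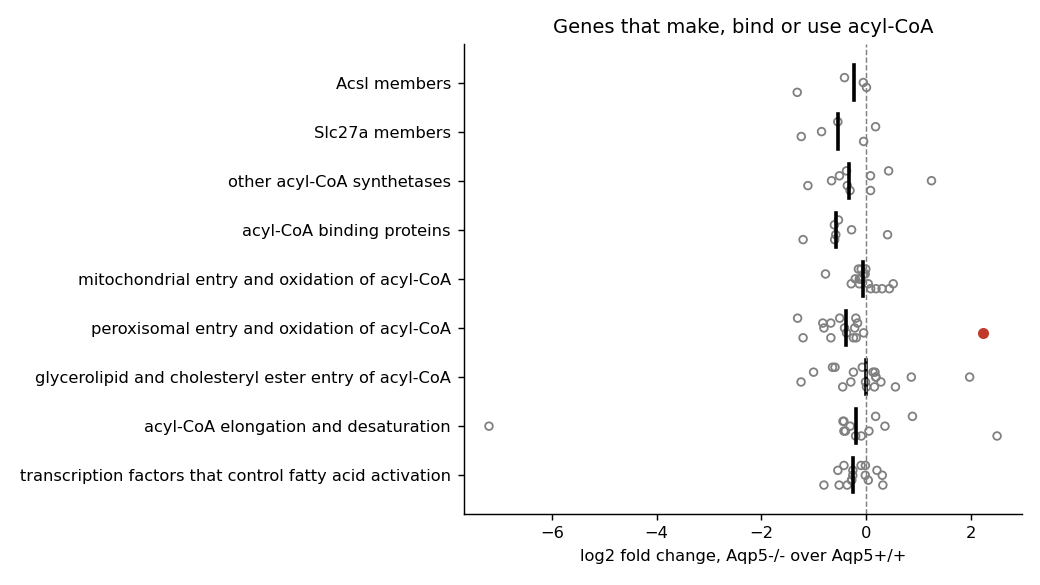
Log2 fold change of Aqp5-/- over Aqp5+/+ for each tested gene of the lists on acyl-CoA (open circles, genes not called; filled circle, called at an adjusted p under 0.05) with the median of each list (bar). The medians lie between -0.58 for the binding proteins and 0.01 for glycerolipid synthesis, and Abcd2 is the filled circle at 2.23.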

How the data were processed

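Raw counts per gene for 6 liver libraries were used as deposited. The authors had trimmed reads with cutadapt 1.9.3, aligned them with HISAT2 2.0.4 to mm10 (per the submitters' processing notes) and counted them with HTSeq. 6 columns of values normalized by the authors were not used. The kits named in the labels and in the methods differ, and the strand setting is not given in the sources used here.

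The low-count filter of edgeR 4.0.16 (filterByExpr; minimum count 10, minimum total 15) kept 12353 of 16858 genes, and libraries were scaled by TMM. Genotype was the only term of the quasi-likelihood fit, run 2-sided in R 4.3.3 with robust settings and Benjamini-Hochberg adjustment over all tested genes, after the function was tested on simulated data. CPM are the counts scaled by these TMM library sizes to a common total. Exon lengths came from GENCODE on GRCm38, which held 16666 of the genes by identifier, and sequences from RefSeq. Per-library sums, shares and ratios were compared by exact permutation.

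The named genes were all 10 members, 15 pathway genes chosen by name (1 is not reported here), every called gene of the pathway lists, and the 5 genes nearest in pattern to Acsl1 and Slc27a2 (log2 of CPM plus 0.5, mean of at least 10 CPM, predicted genes passed over). Scp2, Acss3 and Elovl3, and the overlapping genes Zdhhc6 and Utp14b, were added after their values were seen. The members and lists were chosen with earlier results of these data known. Alternatives were a block for the replicate number, DESeq2 1.42.0, limma 3.58.1 on log2 CPM (prior count 2), RLE scaling, library totals, no filter, a filter at a mean of 1 CPM, and omission of libraries. Depth per library ranged from 7130831 to 15550006 counts, where 3 counts correspond to 0.179 to 0.451 CPM, and this covers counting error only.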

Additional observations from a re-analysis of the deposited data

How the results depend on the processing

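Acsl1, Acsl5, Slc27a2, Slc27a3 and Slc27a5 kept a negative log2 fold change under all 14 alternatives, and Acsl1 kept an unadjusted p under 0.05 in all 14 and Slc27a2 in 11. DESeq2 called 240 genes and 1 member, Acsl1 at -1.32, against 41 genes and 0 members with edgeR. Leaving out 1 library at a time gave 4 to 45 called genes, with 4 without either Aqp5+/+ replicate 1 or Aqp5-/- replicate 2 and 16 to 26 without either Aqp5+/+ replicate 2, Aqp5+/+ replicate 3 or Aqp5-/- replicate 1, and 0 called members and 1 to 3 members at an unadjusted p under 0.05 (1 without Aqp5+/+ replicate 2 or Aqp5-/- replicate 3, and 3, with Slc27a5 added, without Aqp5-/- replicate 2). Leaving out both Aqp5+/+ replicate 2 and Aqp5-/- replicate 3, chosen after seeing the data, gave 101 called genes, 0 called members and 2 members, Acsl1 and Acsl4, at an unadjusted p under 0.05. The share of all tested genes at an unadjusted p under 0.05 is given for the main fit alone (8.78%). The counts of members at that p in the alternatives therefore have no share of their own beside them. The replicate numbers were not used to pair the libraries in the main fit. Deviations of same-numbered libraries correlated at -0.06, 0.23 and 0.15. Aqp5-/- replicates 2 and 3 matched their own number best, and replicate 1 matched Aqp5+/+ replicate 3 best. With 3 libraries per group, these values cannot decide whether same-numbered libraries were handled together. With a replicate block 39 genes and 0 members were called and 2 members had an unadjusted p under 0.05, against 41, 0 and 2 without it, and no member's call changed. The small log2 fold changes changed sign. Acsl4 was 0.095 with library totals, 0.078 with limma, 0.087 with the replicate block, -0.44 to 0.51 when 1 library was left out and -0.80 without both named libraries. Slc27a1 was 0.12 with library totals and -0.25 to 0.11 when 1 library was left out. With library totals the median over all genes was 0.17. When 1 library was left out Acsl3 lay between -0.14 and 0.19 and Slc27a4 between 0.02 and 0.43, and without both named libraries they were -0.16 and -0.043. With the longest transcript in place of merged exons the difference in the summed Acsl level was -170 CPM per kb, against -103 CPM per kb. Leaving out 1 library gave differences of -122 to -89.4 CPM per kb for the Acsl sum, -408 to -213 CPM per kb for the Slc27a sum, -20.0 to -10.9 percentage points for the Acsl1 share and -1.27 to -0.398 percentage points for the share of Slc27a2 and Slc27a5. Limma on the deposited log2 values was not run. The cause of these changes was not tested beyond the construction of each setting. Depth limits the low genes: Slc27a3 had 11 to 34 counts, Slc27a1 36 to 96 and Acsl6 0 to 4 per library.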
